A study of Mus musculus with 12 samples.

Results

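The genes of polyamine synthesis and of its antizyme control were followed in leukaemia cells exposed to an inhibitor of cap-dependent translation. Of the 8 genes listed (Odc1, Oaz1, Oaz2, Azin1, Amd1, Srm, Sms and Sat1), chosen by name, 5 had a probe set annotated to that gene alone, out of 19937 such genes on the array: Odc1, Oaz2, Azin1, Srm and Sat1. For each gene the probe set with the highest mean over the 12 arrays was used, and all 5 were among the 13180 genes bright enough to be tested. Oaz1 and Sms were present only on probe sets that the annotation also assigns to a processed copy (Oaz1-ps and Gm8234), so these signals are described as shared. No probe set of the annotation table used here names Amd1, and it has no value.

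The cells were mouse T-ALL cells (a leukaemia of T cell precursors) labelled as clone 483, of C57BL6 background. Treated cells received 100 µM 4EGI-1, a small molecule that keeps the cap-binding protein eIF4E from binding the scaffold eIF4G, for 2 h; control cells are labelled untreated in the sample annotation and as given DMSO, the solvent, in the protocol. The 4 groups were polysomal 4EGI-1, polysomal control, cytoplasmic 4EGI-1 and cytoplasmic control, each with 3 arrays. Polysomal RNA came from pooled fractions of a sucrose gradient, and the fraction labelled cytoplasmic is called total in the titles. All groups are 1 clone, and the p-values cover the spread between arrays; it may be technical, since little is said of how the cultures were kept apart. Of 15 T cell markers 13 had a probe set, and all 13 were above the brightness filter; the mean of the list lay between 9.21 and 9.45 in the 4 groups on the log2 scale. Markers of other cells were above it too: 3 of 6 for B cells (list means 5.46 to 5.57), 3 of 7 for myeloid cells (5.88 to 5.96), 2 of 2 for erythroid cells (6.46 to 6.61) and 4 of 4 for stroma (6.88 to 7.10). With 4EGI-1, 3 of the 13 T cell markers fell in polysomal RNA, where 12.1% of all genes did, and 2 in cytoplasmic RNA, where 7.79% did (limma, adjusted p below 0.05). Of the other lists, 1 myeloid marker rose and 1 stroma marker fell in cytoplasmic RNA, and 0 passed in polysomal RNA (limma). The part of other cells in the results below was not tested. In bulk RNA such as this, fewer cells of a type and less RNA per cell cannot be told apart.

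Polyamines are small cations needed for growth. Ornithine decarboxylase (Odc1) makes putrescine from ornithine, S-adenosylmethionine decarboxylase (Amd1) supplies the aminopropyl donor, and the synthases Srm and Sms add that group to form spermidine and then spermine, while the acetyltransferase Sat1 marks both for export or breakdown. Antizymes (Oaz1, Oaz2) bind the decarboxylase and deliver it to the proteasome, and their own synthesis requires a ribosomal frameshift that polyamines promote; the antizyme inhibitor (Azin1) is a relative of the decarboxylase without its activity that captures antizyme. Much of this control acts on translation: Odc1 mRNA has a long, structured leader and is a classic eIF4E-sensitive message, and upstream reading frames repress Amd1 and Azin1 when polyamines are plentiful.

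Because the inhibitor acts where ribosomes are recruited, the 5′ ends annotated by RefSeq are given, where available, for the members whose signals are described below. The table, of build GRCm38.p6, held 6 of the 8 genes, with 7 start sites, and had no entry for Azin1 and Srm. The first 30 bases from each start are written 5′ to 3′. Whether these starts are used in the leukaemia cells was not tested.
Odc1, chr12:17544873-17544902, plus strand: gcctcccggccggaaccgatcgcggctggt
Oaz1, chr10:80826656-80826685, plus strand: aaaagtgggcgtcggcgccggcgccatttt
Oaz2, chr9:65676548-65676577, plus strand: ggcggttgcgcggcggcggccggggagggt
Sms, upstream start, chrX:157492258-157492287, minus strand: cgaatggcgggagagcatggccagagcttt
Sms, downstream start, chrX:157491339-157491368, minus strand: gaggggtgtgtgcggcgcgggaccgctgcc
Sat1, chrX:155216420-155216449, minus strand: tgcttcggcgggctttcatccttactggtc

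Over the first 50 bases the GC content was 68.0% for Odc1, 70.0% for Oaz1, 80.0% for Oaz2, 66.0% and 70.0% for the upstream and downstream starts of Sms, 64.0% for Sat1 and 56.0% for Amd1, against a median of 56.0% over all 32851 windows of the table. The share of windows at or above the value was 5.03% for Oaz2, 18.7% for Oaz1 and for the downstream start of Sms, 22.6% for Odc1, 26.8% for the upstream start of Sms, 31.3% for Sat1 and 52.7% for Amd1. None of the 7 member starts, Amd1 included, opened with a C followed by at least 4 bases that were all C or T, the start of a terminal oligopyrimidine tract, which 2.51% of all windows had. The motif CACGTG, which reads the same on both strands, lay in the 300-base window (250 bases before the start and 50 after) of the upstream start of Sms alone among the 7, and in 7.15% of all windows. Amd1, which no probe set measured, carries the best known short reading frame of the pathway, which lies in the RefSeq window at chr10:40302155-40302175 on the minus strand and opens at base 14 from the start; its start and stop codons are in capitals. An ATG closed by an in-frame stop within those 50 bases was present in 11.7% of all windows and in no other of the 7 member starts, which do not include Azin1 and Srm.
Amd1 upstream reading frame: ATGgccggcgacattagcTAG

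Some cytoplasmic arrays stood apart, and Oaz2, Srm and Azin1 moved with them. After each group's mean was removed, the leading principal component held 44.8% of the remaining variance, with scores of 0.17, 0.38 and -0.55 in cytoplasmic 4EGI-1 arrays 1 to 3, of -0.06, 0.53 and -0.48 in cytoplasmic control arrays, and of -0.07 to 0.08 in polysomal arrays. Array 2 was the lowest cytoplasmic array of its group for Oaz2 and for Srm with and without 4EGI-1, and array 3 was the lowest for Azin1 in both. The median over genes of the SD between arrays was 0.08 in polysomal 4EGI-1, 0.07 in polysomal control, 0.12 in cytoplasmic 4EGI-1 and 0.13 in cytoplasmic control arrays. What sets these arrays apart was not tested.

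With 4EGI-1, Odc1 and Sat1 fell in polysomal RNA, which is 2 of 5 genes, while 12.1% of all genes tested fell (limma over all 12 arrays, Benjamini-Hochberg adjusted p below 0.05). In 4 of 5 (Odc1, Oaz2, Srm and Sat1) every polysomal 4EGI-1 array lay below every polysomal control array, as did 27.1% of all genes. The median of the 5 log2 differences was -0.32, against -0.03 over all genes tested. For Azin1 the arrays overlapped. In cytoplasmic RNA none of the 5 passed (limma; 17.8% of all genes passed), 1 of 5 (Azin1) had an unadjusted p below 0.05 where 30.5% of all genes did, and the median difference was 0.00. For none of the 5 were the cytoplasmic groups apart, as they were for 26.5% of all genes. RMA, the authors' processing, sets arrays to a common scale, so a loss of polysomes as a whole is not measured. The array medians were 6.40 to 6.44 in polysomal and 6.45 to 6.56 in cytoplasmic RNA; the mean medians differed by 0.00 and 0.02 between treatments within these fractions, and by -0.10 and -0.08 between polysomal and cytoplasmic RNA in 4EGI-1 and in control cells.

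**Figure D1:**
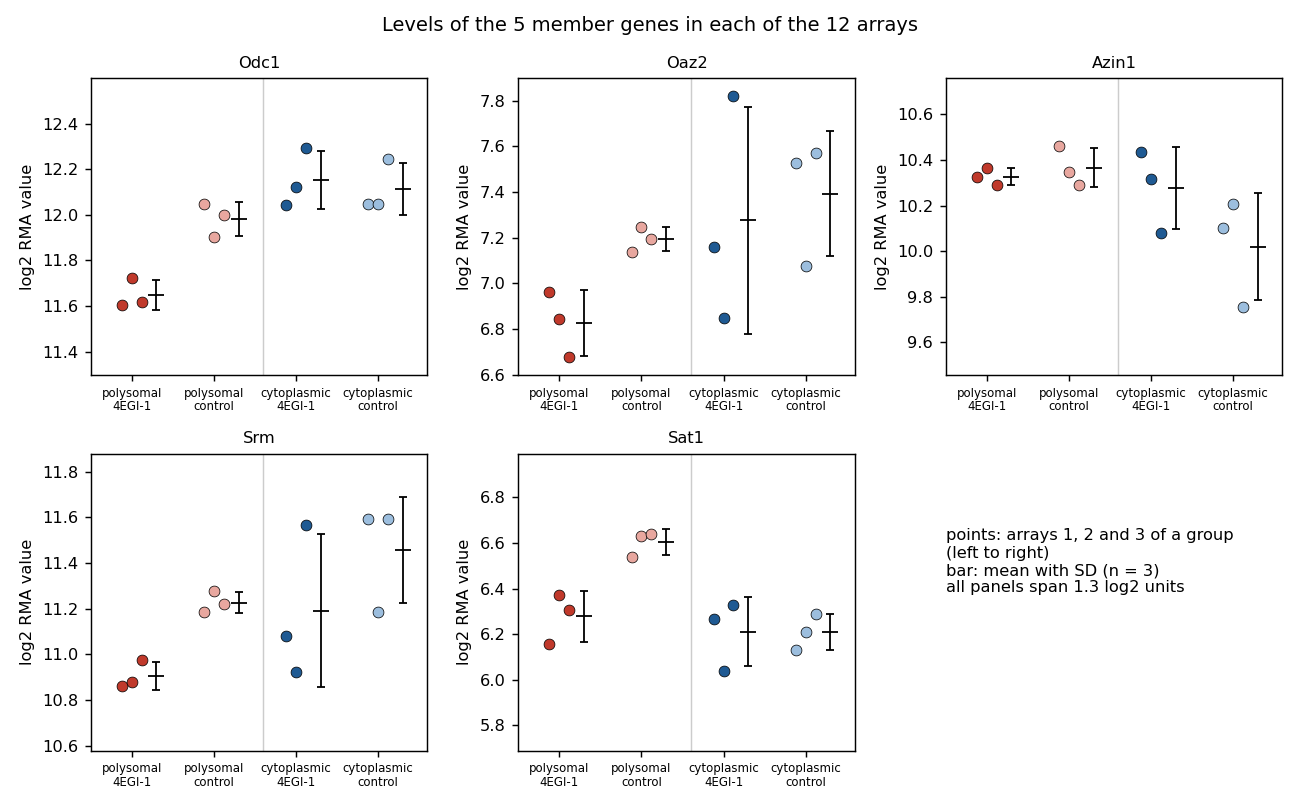
Level of each of the 5 measured genes (y axis, log2 RMA value; every panel spans 1.3 log2 units) in the 4 groups, with arrays as points and mean with SD (n = 3) as bars. The polysomal 4EGI-1 arrays sit below the polysomal control arrays for Odc1, Oaz2, Srm and Sat1 and overlap them for Azin1, and the cytoplasmic arrays of Oaz2 and Srm spread widely.

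Odc1, the first enzyme of the pathway, read 11.60, 11.73 and 11.62 in polysomal 4EGI-1 arrays 1 to 3, against 12.05, 11.90 and 12.00 in polysomal control arrays. In cytoplasmic RNA it read 12.04, 12.12 and 12.29 in 4EGI-1 arrays and 12.05, 12.05 and 12.25 in control arrays. All 3 polysomal 4EGI-1 arrays were thus the lowest of the 12, and the cytoplasmic groups covered the same range. The polysomal level in treated cells was 0.793 of that in control cells (log2 difference -0.33 ± 0.09, SE, n = 3 arrays per group; limma, adjusted p = 0.0108), and the cytoplasmic log2 difference was 0.04 (95% interval -0.15 to 0.23; limma, adjusted p = 0.807). The polysomal change exceeded the cytoplasmic one by -0.37 ± 0.12 on the log2 scale, and this difference of effects did not pass (limma, adjusted p = 0.158; unadjusted p = 0.00909). Without polysomal control array 1 the polysomal change was -0.30 (limma, adjusted p = 0.0516).

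The array holds another probe set that the annotation gives to Odc1. It read 11.04, 11.03 and 11.02 in polysomal 4EGI-1 arrays and 11.33, 11.31 and 11.25 in polysomal control arrays, against 11.58, 11.50 and 11.52 in cytoplasmic 4EGI-1 and 11.36, 11.30 and 11.55 in cytoplasmic control arrays. Again the 3 treated polysomal arrays were the lowest of all. Fitted beside all genes, it fell in polysomal RNA by 0.27 on the log2 scale (limma, adjusted p = 0.0186), with 0.13 ± 0.08 in cytoplasmic RNA (adjusted p = 0.275) and a difference of effects of -0.40 ± 0.11 (adjusted p = 0.0715). Odc1 has processed copies in the mouse genome, and whether this probe set reads one was not tested.

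Of the regulators that dispose of the decarboxylase, antizyme 2 (Oaz2) read 6.96, 6.84 and 6.68 in polysomal 4EGI-1 arrays and 7.14, 7.25 and 7.20 in polysomal control arrays, so the groups did not overlap. The cytoplasmic arrays were far more scattered, at 7.16, 6.85 and 7.82 with 4EGI-1 and 7.53, 7.08 and 7.57 in control cells. With the spread shared by both fractions the polysomal difference of -0.37 ± 0.19 did not pass (limma, adjusted p = 0.184; 95% interval -0.77 to 0.03). Fitted on the 6 polysomal arrays by themselves, its standard error was 0.08 and its adjusted p 0.00284 (limma), and 20.4% of all genes fell in that fit, as did 4 of the 5 here (all but Azin1). Over both fractions but without cytoplasmic 4EGI-1 array 3, it passed as well, with the same log2 difference (limma, adjusted p = 0.0382). In all, the polysomal difference of Oaz2 passed in 4 of 23 alternatives, with an adjusted p of up to 0.409 (limma). The cytoplasmic difference was -0.12 (95% interval -0.52 to 0.28), and it was 0.10 without 4EGI-1 array 2 and -0.39 without 4EGI-1 array 3 (limma, adjusted p = 0.772 and 0.0555).

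The brighter of the probe sets shared by antizyme 1 (Oaz1) and its processed copy Oaz1-ps read 10.59, 10.61 and 10.63 in polysomal 4EGI-1 arrays, against 10.87, 10.97 and 10.96 in polysomal control arrays. Cytoplasmic values were 10.83, 10.75 and 10.87 with 4EGI-1 and 10.96, 11.00 and 10.93 in control cells. Neither pair of groups overlapped, and the treated polysomal arrays were the lowest. The shared signal fell in polysomal RNA (log2 difference -0.32 ± 0.07; limma with these probe sets added, adjusted p = 0.00323), and its cytoplasmic difference was -0.15 ± 0.07 (adjusted p = 0.173). The difference of effects, -0.17 ± 0.10, did not pass (adjusted p = 0.491). The dimmer probe set of the pair had group means of 4.69 to 5.56, below the filter level of 6.0, and was not tested.

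Azin1, which frees the decarboxylase from antizyme, read 10.33, 10.36 and 10.29 in polysomal 4EGI-1 arrays and 10.46, 10.35 and 10.29 in polysomal control arrays, and these overlapped. In cytoplasmic RNA it read 10.44, 10.31 and 10.08 with 4EGI-1 and 10.10, 10.20 and 9.75 in control cells. The polysomal log2 difference was -0.04 (95% interval -0.28 to 0.20; limma, adjusted p = 0.854). The cytoplasmic difference was 0.26 ± 0.11 (limma, adjusted p = 0.139; unadjusted p = 0.0394), and it passed without cytoplasmic 4EGI-1 array 3 (0.36, adjusted p = 0.0353) or without cytoplasmic control array 2 (0.35, adjusted p = 0.0415), but was 0.12 without cytoplasmic control array 3 (adjusted p = 0.479). The difference of effects was -0.30 ± 0.16 (limma, adjusted p = 0.459).

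Spermidine synthase (Srm) read 10.86, 10.88 and 10.98 in polysomal 4EGI-1 arrays and 11.18, 11.28 and 11.22 in polysomal control arrays, with no overlap. Its cytoplasmic values were 11.08, 10.92 and 11.57 with 4EGI-1 and 11.59, 11.19 and 11.59 in control cells. The differences had the same sign in both fractions: -0.32 ± 0.14 in polysomal RNA (limma, adjusted p = 0.115) and -0.27 ± 0.14 in cytoplasmic RNA (adjusted p = 0.221), with a difference of effects of -0.05 (95% interval -0.48 to 0.37). In the 6 polysomal arrays alone the polysomal difference had a standard error of 0.06 and passed (limma, adjusted p = 0.00168), as it did over both fractions without cytoplasmic 4EGI-1 array 3 (adjusted p = 0.0272). In all, the polysomal difference of Srm passed in 4 of 23 alternatives, with an adjusted p of up to 0.259 (limma). The cytoplasmic difference passed without 4EGI-1 array 3 (-0.45, adjusted p = 0.00986) or control array 2 (-0.40, adjusted p = 0.0464), and was -0.13 without 4EGI-1 array 2 (adjusted p = 0.601). The difference of effects changed sign without cytoplasmic 4EGI-1 array 3 (0.13) or control array 2 (0.08).

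The probe sets shared by spermine synthase (Sms) and its copy Gm8234 gave 2 readings of one annotation. The brighter read 11.16, 10.99 and 10.92 in polysomal 4EGI-1 arrays and 11.42, 11.37 and 11.21 in polysomal control arrays, against 11.54, 11.34 and 11.29 in cytoplasmic 4EGI-1 and 11.24, 11.30 and 10.98 in cytoplasmic control arrays. The dimmer read 10.85, 10.78 and 10.73 in polysomal 4EGI-1 arrays and 11.20, 11.12 and 11.16 in polysomal control arrays, while its cytoplasmic groups overlapped. Both fell in polysomal RNA, by 0.31 on the log2 scale (limma with these probe sets added, adjusted p = 0.0389) and by 0.37 (adjusted p = 0.00383). The cytoplasmic differences were 0.22 ± 0.10 (adjusted p = 0.181) and 0.01 ± 0.08 (adjusted p = 0.934). The differences of effects, -0.53 ± 0.15 and -0.39 ± 0.12, did not pass (adjusted p = 0.0775 and 0.116).

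**Figure D2:**
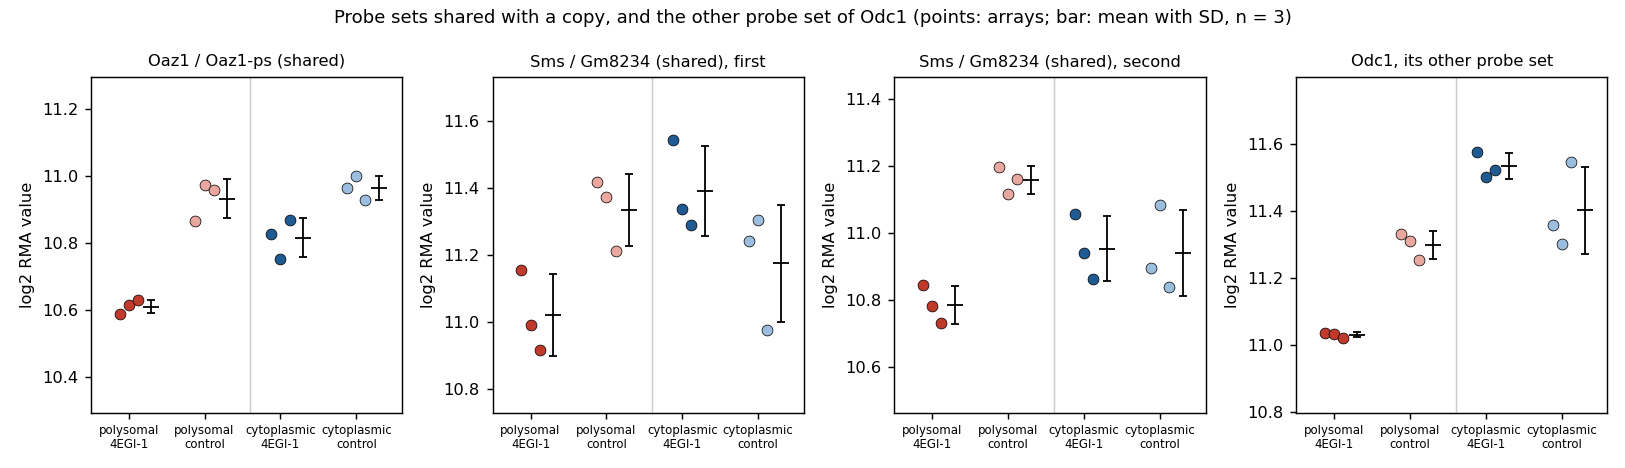
Log2 RMA values (y axis, each panel spanning 1 log2 unit) of the brighter probe set shared by Oaz1 and Oaz1-ps, of both probe sets shared by Sms and Gm8234, and of the other Odc1 probe set; points are arrays and bars mean with SD (n = 3). In all 4 panels the 3 polysomal 4EGI-1 arrays lie below the 3 polysomal control arrays, as they do for 27.1% of all genes tested. The panels are not independent: both Sms panels have one annotation, and the Odc1 panel repeats a gene measured above.

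Sat1, the acetyltransferase of polyamine breakdown, was dim, with values near the filter level of 6.0, so the size of its change is uncertain. It read 6.15, 6.37 and 6.31 in polysomal 4EGI-1 arrays and 6.54, 6.63 and 6.64 in polysomal control arrays. Its cytoplasmic values, 6.26, 6.04 and 6.33 with 4EGI-1 and 6.13, 6.21 and 6.29 in control cells, lay on top of one another. It fell in polysomal RNA to 0.798 of the control level (log2 difference -0.32 ± 0.09; limma, adjusted p = 0.0152), with a cytoplasmic difference of 0.00 (95% interval -0.19 to 0.19) and a difference of effects of -0.33 ± 0.13 that did not pass (adjusted p = 0.258; unadjusted p = 0.023). The polysomal call ended without polysomal 4EGI-1 array 1 (adjusted p = 0.0821) and without polysomal control array 2 (0.0569) or 3 (0.059).

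For the difference between the polysomal and the cytoplasmic effect, none of the 5 genes passed (limma; 2.92% of all genes did), while 2 of 5, Odc1 and Sat1, had an unadjusted p below 0.05, as did 13.6% of all genes. The median difference was -0.30, against -0.01 over all genes. The 5 values were negative, but without cytoplasmic 4EGI-1 array 3 those of Srm (0.13) and Oaz2 (0.02) were not.

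The fractions were also compared within each treatment. In 4EGI-1 cells polysomal Odc1 was at 0.705 of its cytoplasmic level (log2 difference -0.50 ± 0.09; limma, adjusted p = 0.00184) and the groups did not overlap, while 7.15% of all genes were lower in polysomal RNA there and 17% lay lower without overlap; Odc1 was the 1 gene of 5 that passed. Oaz2 had -0.45 ± 0.19 (adjusted p = 0.119) and passed without cytoplasmic 4EGI-1 array 2 (-0.66, adjusted p = 0.0235), but had -0.18 without array 3 of that group (adjusted p = 0.416). In control cells the Odc1 difference was -0.13 ± 0.09 (limma, adjusted p = 0.301). There, 2 of 5 genes were higher in polysomal RNA, as were 16.7% of all genes: Sat1 by 0.39 ± 0.09 on the log2 scale (limma, adjusted p = 0.00429) and Azin1 by 0.35 ± 0.11 (adjusted p = 0.0322). In 4EGI-1 cells the same differences were 0.07 ± 0.09 for Sat1 (adjusted p = 0.66) and 0.05 ± 0.11 for Azin1 (adjusted p = 0.81), the second being -0.05 without cytoplasmic 4EGI-1 array 3; the change of these differences with treatment is the difference of effects given above, which did not pass. Azin1 lost its call in 4 of the 6 fits that left out a control array, without cytoplasmic control array 3 (0.21, adjusted p = 0.135) and without each polysomal control array (adjusted p of 0.126, 0.0697 and 0.0503 for arrays 1 to 3).

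**Figure D3:**
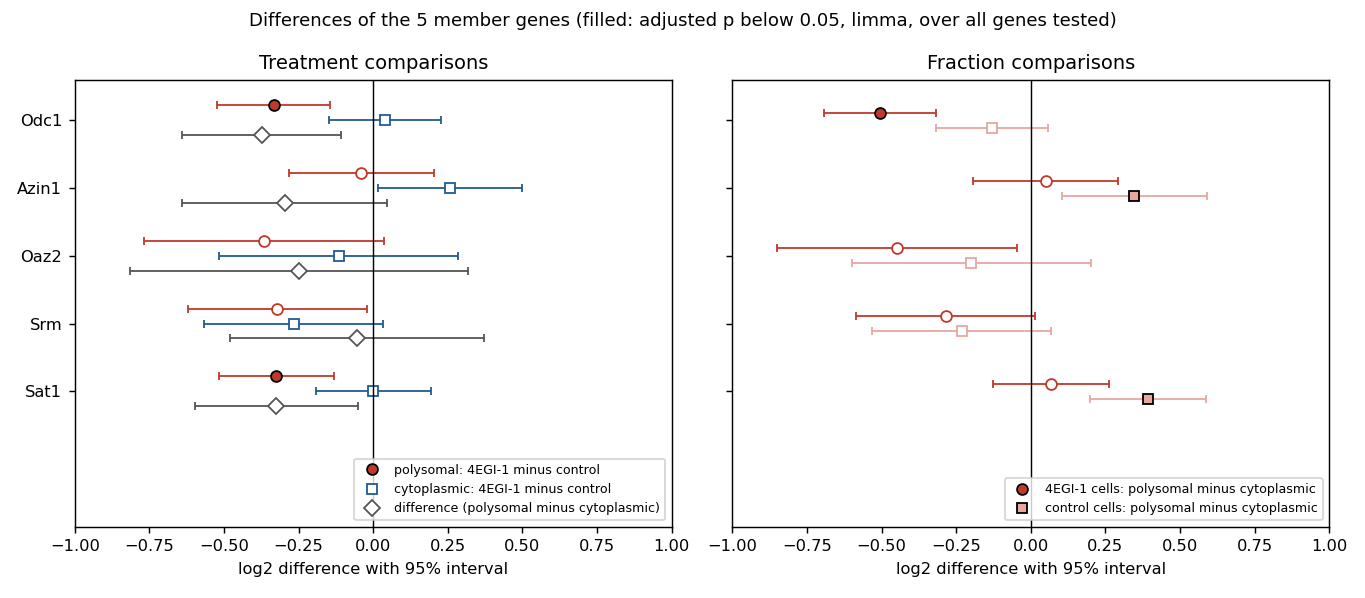
Log2 differences (x axis) with 95% intervals for the 5 measured genes; the left panel gives 4EGI-1 minus control in polysomal RNA (circles), in cytoplasmic RNA (squares) and the difference of these effects (diamonds), the right panel polysomal minus cytoplasmic RNA in 4EGI-1 and in control cells. Filled symbols passed at an adjusted p below 0.05: polysomal Odc1 and Sat1 on the left (-0.33 and -0.32), and Odc1 in 4EGI-1 cells (-0.50) with Azin1 and Sat1 in control cells (0.35 and 0.39) on the right.

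The order of the 4 groups differed between genes. For Odc1 and Oaz2 polysomal 4EGI-1 was the lowest group and did not overlap its neighbour, polysomal control, while the other neighbours overlapped. For Oaz2, however, cytoplasmic 4EGI-1 array 2 (6.85) lay within the polysomal 4EGI-1 range (6.68 to 6.96). For Srm polysomal 4EGI-1 was the lowest too, but its highest array overlapped the cytoplasmic 4EGI-1 range. For Sat1 polysomal control was the highest (mean 6.60) and stood clear of the next group, polysomal 4EGI-1 (6.28). Azin1 was highest in polysomal control (10.37) and lowest in cytoplasmic control (10.02), with polysomal and cytoplasmic 4EGI-1 between them (10.33 and 10.28) and every neighbour overlapping. Over the 12 arrays, which share groups and fractions, the log2 values of Oaz2 and Srm had a Pearson correlation of 0.926, those of Odc1 correlated with Oaz2 at 0.747 and with Srm at 0.721, and those of Azin1 ran against Srm at -0.729; these are descriptions, to which the array differences named above contribute in the cytoplasmic groups.

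The genes whose values were most like those of each member over the 12 arrays were taken as a description, leaving out predicted genes. They were chosen on these same arrays, so group differences like those of the member follow from the choice. For Odc1 they were R3hdm2 (r = 0.974), Slc35c2 (0.943) and the ubiquitin ligase gene Smurf2 (0.939), whose polysomal log2 differences with 4EGI-1 were -0.43, -0.25 and -0.23 beside cytoplasmic ones of 0.06, -0.02 and 0.05. For Sat1 they were Smim26 (0.952), Znhit1 (0.948) and Timm17b (0.940), a gene of mitochondrial protein import, with polysomal differences of -0.52, -0.54 and -0.45. Srm was followed by Mprip (0.980), the clathrin adaptor gene Ap2a2 (0.977) and the receptor phosphatase gene Ptprs (0.968). Oaz2 was followed by the histone deacetylase gene Hdac7 (0.954), Sh3bgrl (0.954) and the condensin gene Ncaph2 (0.953), and Azin1 by Heatr3 (0.956), Zfp933 (0.951) and Ppp1r7 (0.942), a regulator of protein phosphatase. The genes named for Srm, Oaz2 and Azin1 did not pass in polysomal RNA with 4EGI-1 (limma), while those for Odc1 and Sat1 did. After quantile normalization 8 of these 15 names were again among the closest.

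Around these genes, 39 others of polyamine supply, use and transport were listed, of which 26 were tested. In polysomal RNA 3 rose and 6 fell with 4EGI-1, where 13% and 12.1% of all genes did. In cytoplasmic RNA 3 rose and 2 fell, against 10.1% and 7.79%. The cytoplasmic counts were close to those shares.

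On the supply side, 5 genes of catabolism, arginine use and paralogs were tested. Arg2, the mitochondrial arginase that makes ornithine, rose in both fractions and the other 4 did not pass. Of all genes 13% rose in polysomal and 10.1% in cytoplasmic RNA. Arg2 read 6.13, 6.23 and 6.13 in polysomal 4EGI-1 arrays and 5.66, 5.69 and 5.76 in polysomal control arrays (log2 difference 0.46 ± 0.09; limma, adjusted p = 0.00108), and it read 6.32, 6.41 and 6.60 in cytoplasmic 4EGI-1 and 5.79, 5.63 and 5.80 in cytoplasmic control arrays (0.70 ± 0.09; adjusted p = 5.96e-05). All 6 control arrays were under 6.0, the filter level, which the gene passed only through its 4EGI-1 arrays; its call is therefore no support for a change of the list, and the size at such dim values is poorly known. The spermine oxidase gene Smox had -0.06 ± 0.07 in polysomal and -0.15 ± 0.07 in cytoplasmic RNA (adjusted p = 0.633 and 0.188). The median of the list was 0.05 in polysomal and -0.06 in cytoplasmic RNA, against -0.03 over all genes in each fraction.

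Spermidine also feeds the hypusine modification of the translation factor eIF5A. Of 4 genes, 2 fell in polysomal RNA and 1 in cytoplasmic RNA, where 12.1% and 7.79% of all genes fell; the list's medians were -0.31 and -0.33, against -0.03 over all genes in each fraction. Eif5a2, a paralog of Eif5a, fell in both (-0.36 ± 0.09 and -0.32 ± 0.09; limma, adjusted p = 0.00823 and 0.0245), and the hydroxylase gene Dohh fell in polysomal RNA (-0.49 ± 0.14; adjusted p = 0.0209), where it read 6.09, 5.84 and 5.86 in 4EGI-1 arrays and 6.42, 6.38 and 6.45 in control arrays. Dohh was dim, with group means of 5.93 to 6.49 near the filter level of 6.0, so the size of its change is uncertain. The call of Dohh ended when any 1 polysomal array except 4EGI-1 array 1 was left out (adjusted p between 0.0511 and 0.0771), and the cytoplasmic call of Eif5a2 ended without cytoplasmic 4EGI-1 array 2 (0.0752) or control array 2 (0.0804). The cytoplasmic call of Eif5a2 also ended in the 6 cytoplasmic arrays alone (limma, adjusted p = 0.117) and with array weights (0.0878). Eif5a itself had -0.25 ± 0.18 and -0.39 ± 0.18 (adjusted p = 0.364 and 0.161).

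The methionine cycle provides the aminopropyl donor, and the salvage route recovers methionine from the by-product of spermidine and spermine synthesis. Of 12 tested genes, 1 rose and 3 fell in polysomal RNA, where 13% and 12.1% of all genes did. In cytoplasmic RNA 0 rose and 1 fell, against 10.1% and 7.79%. The medians were -0.07 and -0.10, against -0.03 over all genes in each fraction. Those that fell in polysomal RNA were Mtap, which cleaves methylthioadenosine (-0.36 ± 0.09; limma, adjusted p = 0.00703), Enoph1 (-0.36 ± 0.08; adjusted p = 0.00394) and Adi1 (-0.37 ± 0.09; adjusted p = 0.00512), all of the salvage route, of which Apip (-0.10 ± 0.09; adjusted p = 0.508) and Mri1 (0.00 ± 0.10; adjusted p = 0.998) did not pass. Mtap fell in cytoplasmic RNA too (-0.34 ± 0.09; adjusted p = 0.0138), a call that ended without cytoplasmic 4EGI-1 array 2 (0.0626) or control array 3 (0.0509). That call also ended in the 6 cytoplasmic arrays alone (limma, adjusted p = 0.0688). The cytoplasmic differences of Enoph1 and Adi1 were -0.10 ± 0.08 and -0.10 ± 0.09 (adjusted p = 0.438 and 0.5). The methionine synthase gene Mtr rose in polysomal RNA, reading 9.09, 9.04 and 9.05 in 4EGI-1 arrays and 8.11, 8.19 and 8.08 in control arrays (0.93 ± 0.09; limma, adjusted p = 5.07e-06), with a cytoplasmic difference of 0.13 ± 0.09 (adjusted p = 0.372).

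Among 5 tested genes linked to polyamine transport, 1 rose and 1 fell in polysomal RNA, where 13% and 12.1% of all genes did. In cytoplasmic RNA 2 rose and 0 fell, against 10.1% and 7.79%. Slc3a2, the heavy chain of several amino acid transporters, read 11.77, 11.77 and 11.82 in polysomal 4EGI-1 arrays and 10.71, 10.69 and 10.82 in polysomal control arrays. It rose in both fractions (1.04 ± 0.13 in polysomal and 0.61 ± 0.13 in cytoplasmic RNA; limma, adjusted p = 3.62e-05 and 0.00484), and its difference of effects, 0.44 ± 0.19, did not pass (adjusted p = 0.306). Atp13a3, a P-type ATPase that moves polyamines, was lower in polysomal 4EGI-1 arrays (-0.29 ± 0.07; limma, adjusted p = 0.00886), beside a cytoplasmic difference of -0.02 ± 0.07 (adjusted p = 0.909); without polysomal 4EGI-1 array 3 the polysomal adjusted p was 0.0555. Slc12a8, of the cation-chloride cotransporter family, rose in cytoplasmic RNA (0.34 ± 0.09; adjusted p = 0.0172), with 0.08 ± 0.09 in polysomal RNA (adjusted p = 0.614), and lost its call without cytoplasmic 4EGI-1 array 1 (0.0717) or control array 1 (0.0651) or 3 (0.0599). Its cytoplasmic call also ended in the 6 cytoplasmic arrays alone (limma, adjusted p = 0.0686). Slc12a8 was dim, with group means of 6.12 to 6.68 near the filter level of 6.0, so the size of its change is uncertain.

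**Figure D4:**
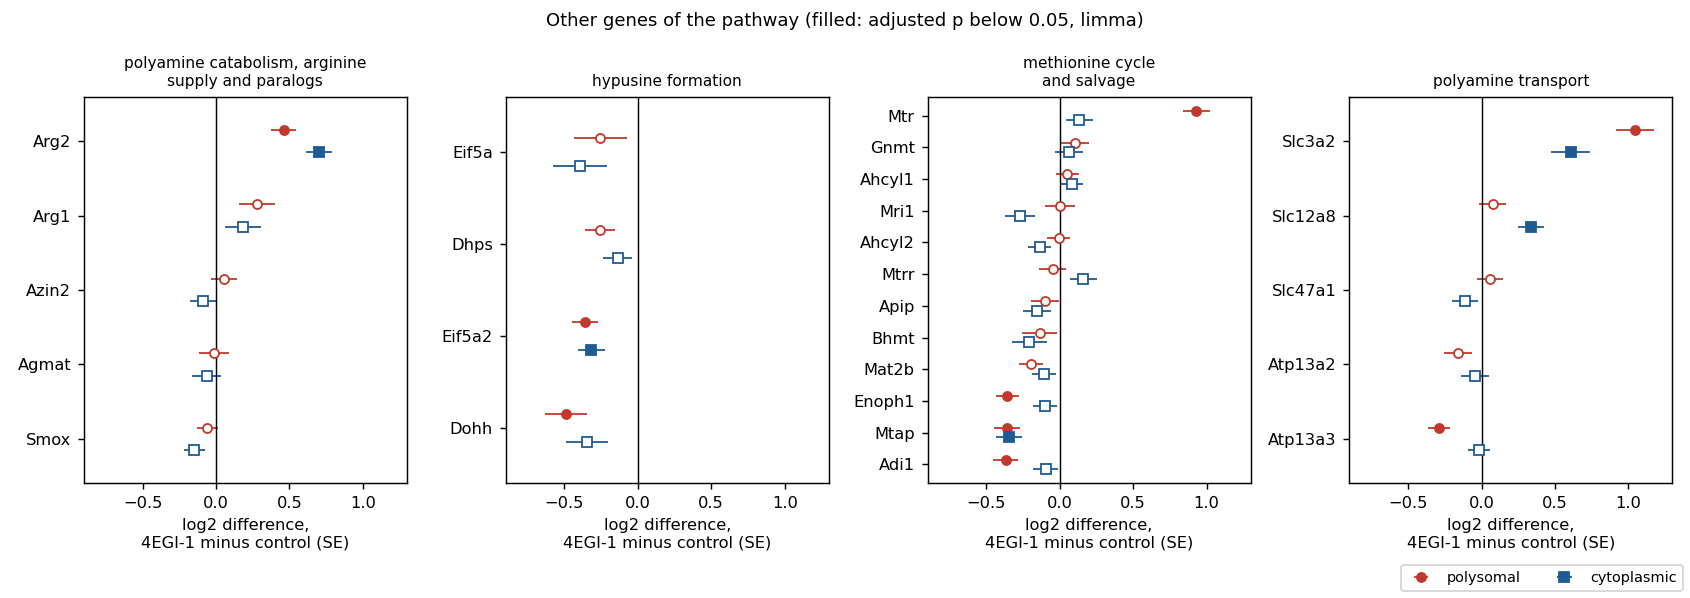
Log2 differences, 4EGI-1 minus control (x axis, with SE), of the 26 tested genes around the pathway in 4 lists, polysomal RNA as circles and cytoplasmic RNA as squares; filled symbols passed at an adjusted p below 0.05. The largest are the polysomal values of Slc3a2 (1.04) and Mtr (0.93), and the filled polysomal symbols left of 0 are Dohh, Eif5a2, Adi1, Mtap, Enoph1 and Atp13a3.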

How the data were processed

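The deposited table gives log2 values of 34760 probe sets; the authors used RMA, which subtracts background, normalizes and summarises probes, per the submitters' processing notes. Its version, and whether all 12 arrays were run at once, is not given in the sources used here. Gene names came from the platform annotation (21640 with 1 symbol, 1321 with several, 11799 with none) and updated by Entrez number with RefSeq GRCm38.p6; genes with several probe sets took the one with the highest mean. Genes below the 40th percentile of probe set means (6.0) were left out. Group means were fitted with limma 3.58.1 in R 4.3.3 (lmFit, eBayes) over all 12 arrays, with 5 contrasts and Benjamini-Hochberg adjustment over 13180 genes at 0.05. Errors are standard errors unless named as SD. The fit was also run on simulated data with independent noise and the same spread in all groups. Those data lacked the array differences and the unequal spread of the fractions described above, so they do not show how the fit handles these. The members, gene lists and settings were chosen with earlier results of these data known. Named are all members, pathway genes that passed a treatment comparison (at most 4 per list) and the 3 genes most correlated with each member; Smox, Eif5a, Apip, Mri1 and the cytoplasmic values of called genes are added for comparison. Shared probe sets of Oaz1 and Sms and the other Odc1 probe set were fitted as added rows, chosen after seeing the data. No 2 arrays held the same values. Marker lists are given by counts above the filter, and levels of different probe sets are not compared. Precision is limited by the 3 arrays per group. Alternatives were the probe set rule, the filter, normalization, the spread estimate, array weights, fits of 6 arrays, the replicate block and leaving out each array.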

Additional observations from a re-analysis of the deposited data

Results flagged for a closer look

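The difference of the 4EGI-1 effects between fractions passed for 0 of the 5 members and for 1 of the 26 tested genes around them. Among all genes 2.92% passed (limma), so this count is near that share. For the 1 gene, Mtr, the methionine synthase gene, the polysomal minus cytoplasmic effect was 0.797 on the log2 scale (SE 0.13; limma, adjusted p = 0.00332). Its polysomal level was below the cytoplasmic one in control cells (-0.70 ± 0.09; limma, adjusted p = 7.27e-05) and near it in 4EGI-1 cells (0.09 ± 0.09; adjusted p = 0.538).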

How the results depend on the processing

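The polysomal decrease of Odc1 kept its sign in all 23 alternatives and passed in 22 of them, and that of Sat1 in 19 of the 22 that tested it. Those of Oaz2 and of Srm each passed in 4 of 23. The number of the 5 genes called in polysomal RNA with 4EGI-1, 2 as reported, was 4 in the 6 polysomal arrays alone, 4 with array weights, 4 with a replicate block in those 6 arrays, 1 with the filter at the 50th percentile (which leaves Sat1 untested), and 1 to 4 with 1 array left out. In cytoplasmic RNA it was 3 with array weights (Azin1 higher, Oaz2 and Srm lower) and 0 to 2 with 1 array left out, against 0; for the difference of effects it was 3 with array weights, against 0, and 0 in each fit with 1 array left out. In 4EGI-1 cells polysomal against cytoplasmic RNA gave 2 with array weights and 1 to 2 with 1 array left out, against 1; in control cells it gave 1 without a filter, 1 with the stricter filter, 1 after quantile normalization, 4 with array weights (Azin1 and Sat1 higher, Oaz2 and Srm lower) and 1 to 2 with 1 array left out, against 2. Atp13a3 was lower in polysomal than in cytoplasmic RNA of 4EGI-1 cells (log2 difference -0.24, limma, adjusted p = 0.0386). With the mean of its probe sets that log2 difference was 0.0694 (limma, adjusted p = 0.614). In control cells it was 0.43 with the mean (limma, adjusted p = 0.00117) and 0.03 as reported, so the probe sets of Atp13a3 differ. Its call in 4EGI-1 cells also ended without a filter (limma, adjusted p = 0.0733) and in the 6 arrays of these cells alone (0.0714). With arrays centred on their medians it ended too (-0.14, limma, adjusted p = 0.242). Leaving out any 1 4EGI-1 or polysomal control array ended it as well (limma, adjusted p between 0.0504 and 0.16). The cause of these changes was not tested. With the replicate number as a replicate block over 12 arrays the counts were as reported (2 in polysomal RNA, Odc1 adjusted p = 0.00873, limma). The labels do not say that a number marks a shared culture, so the main fit did not pair arrays. Same-numbered arrays had correlations of deviations from -0.216 to 0.562. Between the cytoplasmic groups they were -0.216, 0.562 and 0.516 for numbers 1, 2 and 3. Whether arrays 2 and 3 share a culture there was not tested. With the block in the 6 cytoplasmic arrays alone, Dohh passed (-0.34, limma, adjusted p = 0.0378) and Eif5a2 did not (adjusted p = 0.0592).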
